A study of Mus musculus with 20 samples.

Results

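The regions described here are stretches of open chromatin that were found in every hematopoietic stem cell (HSC) library titled 6bKO and in no library titled Control. Open chromatin was mapped by ATAC-seq, in which a transposase cuts accessible DNA and the cuts pile up into peaks. Where peaks of different lists shared 1 bp or more they were joined, which left 149774 regions on the mm10 genome, and 1948 of them (1.30%) had a peak in all 3 lists titled 6bKO and in none of the 3 titled Control. The opposite pattern, a peak in all 3 Control lists and no 6bKO list, held for 431 regions (0.288%), and 19466 regions had a peak in all 6 lists. The regions were thus selected on the authors' peak calls, so their number and their presence or absence in a list are descriptions without a test. All mice were C57BL/6 at 8 weeks of age and carried the Vav-CRE driver, which is active across blood formation. Controls were Vav-CRE:Kdm6b+/+ and the knockout Vav-CRE:Kdm6b fl/fl, and Kdm6b encodes an enzyme that removes methyl groups from lysine 27 of histone H3. Cells were sorted as lineage-negative, cKit+, Sca1+, CD150+ and CD48-. An ATAC library came from 10000 sorted cells, and an RNA library from marrow pooled over 3 males and 3 females, with 3 libraries per group in each assay. For RNA the genotype label reads Kdm6b-KO, but every ATAC library carries the genotype label wild-type, so the ATAC groups rest on the titles alone. Nothing in the ATAC labels says whether the libraries came from separate animals.

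Chromatin opens where transcription factors displace nucleosomes, mostly at promoters, where transcription starts, and at enhancers, which can lie far from the genes they act on. Methylation of lysine 27 on histone H3 is laid down by Polycomb proteins and is a mark of silent genes, and Kdm6b and its X-linked relative Kdm6a can remove it. A peak call is a yes or no decision at a threshold, so a region missing from a list can still have some cuts there.

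Few of these regions lay at a promoter, so sequence can be shown only where one overlapped the window from 250 bases before to 50 bases after an annotated gene start. Sequences and starts are from RefSeq, GRCm38.p6, and 76 regions overlapped such a window. The upstream bases of 5 windows follow, 5′ to 3′ on the gene's strand. Those of Ifi44 and Fbxo39 are shown because the region there lay next to a gene whose RNA differed, those of Zim1 and Pou3f4 because their regions ranked among the best of those at a start, and that of Cckbr because it lay in the widest region. Capitals mark a match, on either strand, to 1 of 4 searched motifs, which were AP-1 as TGANTCA, the RUNX core as TGTGGT, the site of GATA factors as AGATAA and the E-box as CAGNTG.
Ifi44 (chr3:151749911-151750107, minus strand, 197 bases): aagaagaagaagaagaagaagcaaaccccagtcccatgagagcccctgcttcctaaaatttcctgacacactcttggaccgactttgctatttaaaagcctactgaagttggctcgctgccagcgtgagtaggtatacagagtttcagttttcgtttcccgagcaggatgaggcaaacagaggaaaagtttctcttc
Fbxo39 (chr11:72314194-72314443, plus strand, 250 bases): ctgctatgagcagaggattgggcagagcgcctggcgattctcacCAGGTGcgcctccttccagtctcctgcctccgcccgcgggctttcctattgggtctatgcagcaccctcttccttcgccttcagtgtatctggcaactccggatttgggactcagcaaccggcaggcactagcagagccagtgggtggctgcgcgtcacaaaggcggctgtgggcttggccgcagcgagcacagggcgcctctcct
Zim1 (chr7:6696433-6696682, minus strand, 250 bases): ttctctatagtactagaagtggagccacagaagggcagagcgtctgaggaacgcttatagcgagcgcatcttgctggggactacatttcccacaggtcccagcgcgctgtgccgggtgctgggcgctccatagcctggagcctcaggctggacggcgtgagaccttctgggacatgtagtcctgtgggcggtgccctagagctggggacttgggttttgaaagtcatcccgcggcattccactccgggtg
Pou3f4 (chrX:110814129-110814378, plus strand, 250 bases): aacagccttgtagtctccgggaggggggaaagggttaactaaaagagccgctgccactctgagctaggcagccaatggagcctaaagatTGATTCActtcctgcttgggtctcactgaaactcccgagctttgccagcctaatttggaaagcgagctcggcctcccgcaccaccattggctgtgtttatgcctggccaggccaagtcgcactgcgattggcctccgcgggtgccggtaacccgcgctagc
Cckbr (chr7:105425481-105425730, plus strand, 250 bases): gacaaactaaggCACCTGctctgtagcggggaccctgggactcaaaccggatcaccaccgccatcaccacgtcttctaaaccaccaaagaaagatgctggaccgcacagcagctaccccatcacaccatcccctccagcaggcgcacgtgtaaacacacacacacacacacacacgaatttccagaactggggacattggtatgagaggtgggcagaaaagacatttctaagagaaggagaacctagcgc
The Pou3f4 stretch held an AP-1 match and those of Fbxo39 and Cckbr an E-box match, while the letters of these 4 motifs were in neither the Ifi44 nor the Zim1 stretch. Over all 84 windows that the regions overlapped, AP-1 matches were in 7.14% against 7.81% of all 32851 promoter windows, RUNX in 13.1% against 16.8%, GATA in 4.76% against 11.2% and E-box in 42.9% against 51.4%. The ETS core GGAA, not put in capitals, was in 98.8% against 96.0%, so it separates few windows from others. These motifs can overlap one another, and a match is not a binding site.

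Within their lists the regions were of middling strength. Peaks were ranked by the authors' p-value, with 0% the strongest peak of a list and 100% the weakest. The median rank of the regions was 46.1%, 56.1% and 51.4% in the lists of libraries titled 6bKO 1, 2 and 3, against 17.1%, 19.1% and 14.4% for the regions open in all 6 lists. The strongest 25% of each list held 296, 80 and 74 of the 1948 regions, or 15.2%, 4.11% and 3.80%. The regions open in all 6 lists had 65.6%, 62.3% and 76.8% there. The authors' fold enrichment over background had medians of 6.55, 6.25 and 7.62 against 10.3, 11.4 and 14.5 for regions open in all lists. Ranks in one library followed those in another only loosely, with Spearman's rho across regions of 0.27 between libraries 1 and 2, 0.23 between 1 and 3 and 0.45 between 2 and 3. These are descriptions over regions of the same libraries. The regions open only in Control lists had, in their own lists, median ranks of 60.5%, 57.2% and 48.2% in Control 1, 2 and 3. Their median width was 407 bp, against 388 bp (interquartile range 305 to 483 bp, from 163 to 1187 bp) for the regions open only in 6bKO lists. Regions open in all 6 lists had a median of 667 bp and all merged regions one of 282 bp. ATAC read depth is unknown here. The lists titled 6bKO held 63682, 53692 and 69729 peaks and those titled Control 47450, 44739 and 62125, so the longest list was from a 6bKO library and the shortest from a Control library. Library 6bKO 1 stood apart with 26917 peaks that no other list shared, against 8926 to 16203 in the other 5 lists.

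**Figure D1:**
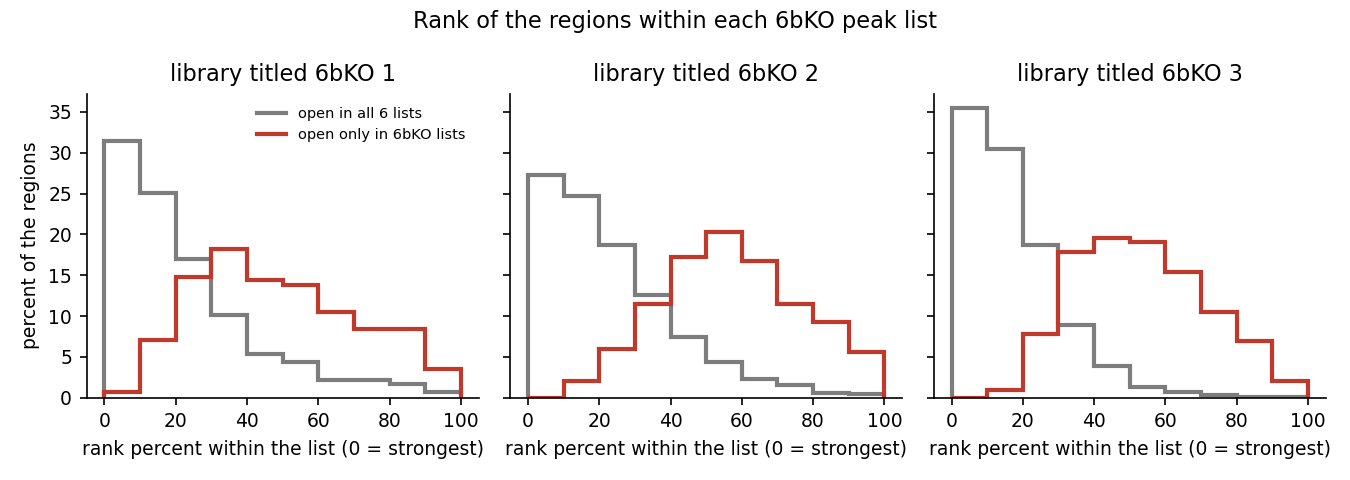
Share of regions (vertical axis, percent) by rank within the peak list (horizontal axis, percent, 0 = strongest) for the 3 libraries titled 6bKO, with regions open only in 6bKO lists in red and regions open in all 6 lists in grey. The red regions spread over the middle of each list, with medians of 46.1%, 56.1% and 51.4%, and the grey ones gather at the strong end.

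The edge of the rule was a matter of short distances in some regions. The Control peak nearest to a region was a median of 6207 bp away, 14 bp in the closest case, under 100 bp for 20 regions and within 1 kb for 271 (13.9%). It was more than 10 kb away for 711 regions (36.5%). Just outside the rule stood 3277 regions with a peak in all 3 6bKO lists and 1 Control list, and in 2623 of these the Control list was that of library 3, the longest of the Control lists, against 409 for library 1 and 245 for library 2. Their Control peak had a median rank of 61.2%, and in 18 of them it overlapped the 6bKO peaks by under 100 bp, 18 bp at the least. In the 6bKO lists these regions had median ranks of 42.2%, 50.8% and 41.6%, somewhat stronger than the regions inside the rule. The number inside depended on single libraries: it was 4579 without Control 3, 5199 without 6bKO 1 and 3665 without 6bKO 2. With every list limited to the length of the shortest, 1486 regions met the rule, 1038 of the 1948 (53.3%) among them, and the opposite pattern then held for 731 regions.

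The regions were mostly away from gene ends. In all, 1254 of the 1948 (64.4%, exact 95% interval 62.2% to 66.5%, which covers counting error only) lay in the span of an annotated gene, and 1070 (54.9%) in that of a protein-coding gene. Those shares were near the 63.2% and 54.4% of all merged regions and below the 80.7% and 73.4% of regions open in all 6 lists. Of the regions open only in Control lists 71.9% lay in a gene span. An end of a protein-coding gene, of either kind since the table of spans gives no strand, lay within 1 kb of 162 regions (8.32%), against 7.66% of the regions open only in Control lists, 12.6% of all merged regions and 42.6% of those open in all lists. The median distance to such an end was 21867 bp against 17671, 19966 and 3138 bp in the same order, and 359 regions (18.4%) were more than 100 kb from one. Exons and introns were not told apart here, because the annotation used gives gene spans only. By chromosome, the share of merged regions that met the rule ran from 1.10% on chromosome 1 to 1.63% on chromosome 15, and was 0 on Y. Chromosome 11, which carries Kdm6b, had 112 (1.20%). Within 10 Mb of Kdm6b 26 of 1863 merged regions (1.396%) met the rule, the closest 733 kb from the gene.

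**Figure D2:**
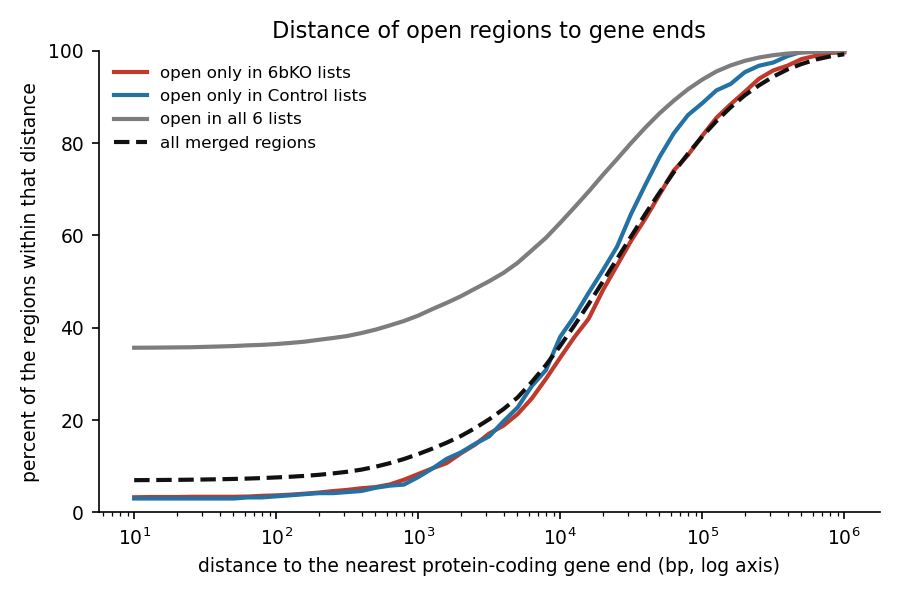
Share of regions (vertical axis, percent) that lay within a given distance (horizontal axis, bp, log scale) of the nearest end of a protein-coding gene, for 4 sets of regions. At 1000 bp the curve of regions open only in 6bKO lists stood at 8.32% and that of regions open in all 6 lists at 42.6%.

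Genes next to the regions spanned the whole range of RNA levels, with many nearly silent in HSCs. The nearest protein-coding gene had RNA counts for 1932 of the 1948 regions, and its mean level over the 3 Control RNA libraries was a median of 7.90 CPM (counts per 1000000 counts of the library, after scaling), interquartile range 0.378 to 41.7. It was under 1 CPM for 629 regions (32.6%), close to the 33.2% of all merged regions. It was under 1 CPM for 19.4% of the regions open only in Control lists, where the median was 23.6 CPM, and for 14.8% of those open in all 6 lists, where it was 26.5 CPM. Of all 21194 counted protein-coding genes 43.2% were under 1 CPM. CPM are not corrected for gene length, so they place genes in broad classes only.

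**Figure D3:**
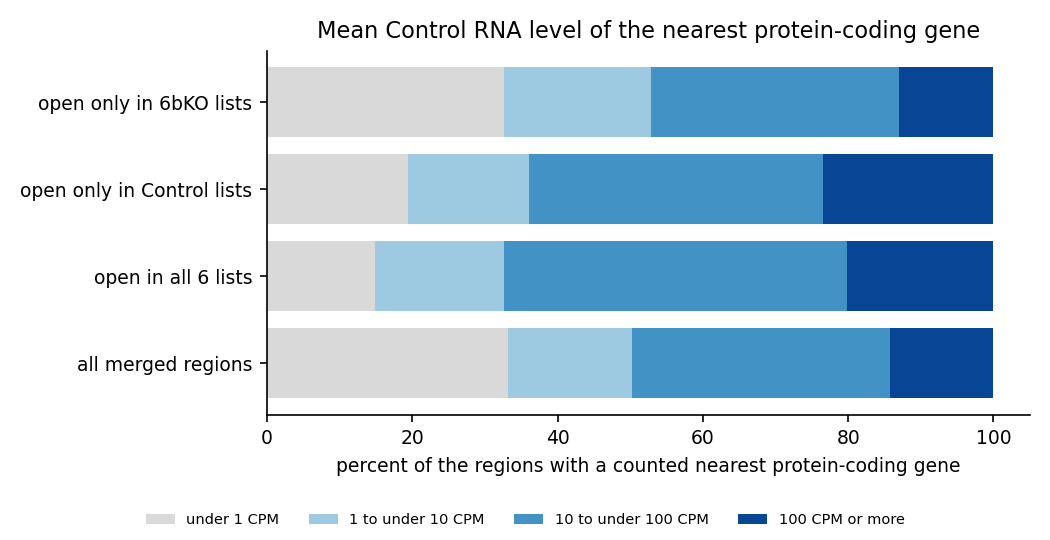
Share of regions (horizontal axis, percent) by the mean Control RNA level, in CPM, of the nearest protein-coding gene, for 4 sets of regions. Genes under 1 CPM made up 32.6% for regions open only in 6bKO lists and 19.4% for regions open only in Control lists.

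Most counted genes with such a region over their start were nearly silent in HSCs. The 76 regions at a promoter window, of 1887 outside chromosome 18 (4.03%), lay at 77 genes, 56 of them protein-coding, and 68 had counts. Of these, 41 (60.3%) were under 1 CPM in Control, against 635 of 7744 (8.20%) for the genes at regions open in all 6 lists and 7 of 16 for regions open only in Control lists. Over all 21194 counted protein-coding genes it was 43.2%, and the share for genes at all merged regions is not given here. The 41 included long noncoding genes. Among them were also genes known from other tissues. Pou3f4, a transcription factor of neurons and the inner ear, measured 0.154, 0 and 0.0731 CPM in the Control libraries against 0.262, 0.654 and 0 in the Kdm6b-KO ones. Zim1, an imprinted zinc finger gene, measured 0.307, 0 and 0 CPM in the Control libraries against 0.175, 0.109 and 0 in the Kdm6b-KO ones, and Cckbr, the gastrin receptor, 0, 0.381 and 0.0731 CPM in the Control libraries against 0.175, 0 and 0 in the Kdm6b-KO ones. Meox2, a homeobox factor of mesoderm, measured 0, 0 and 0.0731 CPM in the Control libraries against 0.0874, 0.109 and 0 in the Kdm6b-KO ones. All 4 thus stayed under 1 CPM in all 6 libraries, although the region at their start was called in every 6bKO list. Of the 28 genes at a promoter region that had enough counts to be tested, 0 passed an adjusted p under 0.05 in edgeR's quasi-likelihood test, where 0.461% of all 15185 tested genes did. In that test 6 of the 28 had an unadjusted p under 0.05, against 14.8% of all tested genes. DESeq2 called 2, against 438 (3.09%) of the 14187 genes to which it gave an adjusted p. Their median log2 fold change, Kdm6b-KO over Control, was 0.33, and 19 of 28 (67.9%) were positive, against a median of 0.01 and 51.5% for the 7157 tested genes at regions open in all 6 lists. The 9 tested genes at regions open only in Control lists were close to these values, with a median of 0.28 and 6 of 9 (66.7%) positive, and 1 of the 9 was called. Evc2, part of a complex at the primary cilium, measured 2.61, 1.02 and 1.68 CPM in the Control libraries against 4.46, 4.79 and 7.47 in the Kdm6b-KO ones (log2 change 1.68 with SE 0.47, adjusted p = 0.127). Dctn1, a subunit of the dynactin motor adaptor, measured 12.0, 5.34 and 9.50 CPM in the Control libraries against 22.9, 15.0 and 19.0 in the Kdm6b-KO ones (log2 change 1.09 with SE 0.32, adjusted p = 0.148). Both pairs of groups were apart, yet neither gene passed. At the other end Map7d3, a microtubule-associated protein, measured 61.0, 46.4 and 45.2 CPM in the Control libraries against 35.1, 34.0 and 26.2 in the Kdm6b-KO ones (log2 change -0.68 with SE 0.22, adjusted p = 0.174). All of these 7 genes but Cckbr were picked for the text after their values were seen. The table of starts covers 81.8% of protein-coding genes outside chromosome 18, so genes at other starts are not in these counts.

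The 6 strongest regions, ordered by the weakest of their ranks in the 3 lists, were spread over 5 chromosomes. The first, at chr5:149202819-149203300, lay in Uspl1, a SUMO protease of nuclear Cajal bodies, with ranks of 16.6%, 17.9% and 15.6% and authors’ folds of 11.6, 14.7 and 19.2 in the lists of libraries titled 6bKO 1, 2 and 3. Uspl1 RNA was 102, 132 and 90.9 CPM in the Control libraries against 94.4, 94.0 and 123 in the Kdm6b-KO ones (log2 change -0.06 with SE 0.20, adjusted p = 0.921), with overlapping groups. The second, at chr3:37201214-37201677, was 12621 bp from the long noncoding gene Gm12532, with ranks of 18.1%, 18.4% and 18.5% and authors’ folds of 9.24, 10.8 and 10.6 in the lists of libraries titled 6bKO 1, 2 and 3. The third, at chr7:19247581-19247897, was 764 bp from Opa3, which encodes a mitochondrial protein. Opa3 RNA was 34.1, 28.8 and 29.4 CPM in the Control libraries against 41.3, 39.2 and 40.2 in the Kdm6b-KO ones (log2 change 0.39 with SE 0.20, adjusted p = 0.396), apart between groups but not past the threshold. The fourth, at chr8:102667162-102667625, lay in Cdh11, a cadherin of mesenchymal cells, 66066 bp from any Control peak, with ranks of 16.3%, 12.6% and 19.8% and authors’ folds of 11.8, 17.1 and 16.3 in the lists of libraries titled 6bKO 1, 2 and 3. Cdh11 RNA was nearly absent, at 0.461, 0.254 and 0.804 CPM in the Control libraries against 0.961, 0.654 and 0.396 in the Kdm6b-KO ones. The fifth, at chr11:36036351-36036843, lay in Tenm2, a teneurin of neurons, also nearly absent at 0, 0.381 and 0.219 CPM in the Control libraries against 0.874, 0.327 and 0 in the Kdm6b-KO ones, and the sixth, at chr5:32977793-32978317, in Depdc5, a subunit of a complex that restrains the growth kinase mTORC1. Depdc5 RNA was 22.3, 54.1 and 44.9 CPM in the Control libraries against 26.2, 35.4 and 29.2 in the Kdm6b-KO ones (log2 change -0.42 with SE 0.29, adjusted p = 0.519), with overlapping groups. All 6 regions met the rule under each of the 10 alternative ways of merging, filtering or leaving out libraries, which for the stricter filters follows largely from having been picked for strong ranks. Most of the other ways relax the rule and could hardly remove a region.

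The 3 widest regions were 1187, 1148 and 1057 bp long. The widest, at chr7:105425351-105426537, covered the start of Cckbr shown above, and did not meet the rule with lists of equal length or without 6bKO 2. The next, at chr9:44479230-44480377, was 2361 bp from Bcl9l, a coactivator of Wnt signalling, and the third, at chr16:62807333-62808389, lay in Arl13b, a GTPase of cilia. Bcl9l RNA was 11.7, 8.89 and 7.82 CPM in the Control libraries against 8.65, 14.5 and 9.20 in the Kdm6b-KO ones and Arl13b RNA 16.3, 19.8 and 16.4 CPM in the Control libraries against 14.2, 12.1 and 19.1 in the Kdm6b-KO ones, both with overlapping groups. Their adjusted p were 0.826 and 0.765.

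Some genes had several of these regions, up to 5 within 50 kb. A row of 5 on chromosome 1, from 180401202 to 180434473, lay along Itpkb, a kinase of inositol trisphosphate that is required in T cells and HSCs, and its neighbours Stum and Gm39712. Their ranks ran from 18.05% to 85.7%. Itpkb RNA was 27.2, 22.9 and 16.8 CPM in the Control libraries against 28.0, 34.3 and 31.4 in the Kdm6b-KO ones (log2 change 0.49 with SE 0.24, adjusted p = 0.361), apart between groups but not past the threshold, and Stum was under 1 CPM in all 6 libraries. Septin9, a cytoskeletal GTPase on chromosome 11, also had 5, of which 3 lay within its span, 1 was 1159 bp and 1 was 45063 bp away. Septin9 RNA was 121, 84.0 and 92.6 CPM in the Control libraries against 117, 130.0 and 176 in the Kdm6b-KO ones (log2 change 0.51 with SE 0.21, adjusted p = 0.291), and the groups overlapped. The last 5 lay in Tcra, the T cell receptor alpha locus on chromosome 14, spread from position 52782869 to 54102293. The annotated span of Tcra, from 52427967 to 54224198, is wide and overlaps 222 other genes, so it has more room for such regions.

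Gene lists for HSCs and for other cells of the marrow were set beside the regions, and no list was tested. Of 21887 protein-coding genes, 6.48% had a region open only in 6bKO lists within 10 kb and 13.6% within 50 kb. Longer genes have more room for one. Of the 24 HSC transcription factors 6 (25%) had one within 10 kb and 10 (41.7%) within 50 kb, with a median span of 19.7 kb against 17.2 kb for all protein-coding genes. The 6 were Erg, Fli1, Lmo2, Mecom, Prdm16 and Zfpm1, and the further 4 were Gfi1, Hoxb4, Nkx2-3 and Tal1. All 6 are longer than the median of their list, and Mecom, Prdm16, Erg and Fli1 are several times longer. The 25% and 41.7% are not corrected for gene length. The same shares for regions open only in Control lists are not given here. None of the 24 was called in RNA by edgeR, 6 had an unadjusted p under 0.05 and DESeq2 called 2 (14.8% and 3.09% over all genes). Fli1, an ETS factor of stem and megakaryocytic cells, measured 2074, 1833 and 1412 CPM in the Control libraries against 1187, 1134 and 946 in the Kdm6b-KO ones (log2 change -0.70 with SE 0.23, adjusted p = 0.189), lower in every Kdm6b-KO library but not past the threshold in edgeR. DESeq2 gave Fli1 an adjusted p of 0.0318. Erg, its close relative, measured 138, 109 and 142 CPM in the Control libraries against 145, 133 and 105 in the Kdm6b-KO ones (log2 change -0.02 with SE 0.20, adjusted p = 0.973), and Mecom, which maintains HSCs, 187, 226 and 249 CPM in the Control libraries against 233, 241 and 202 in the Kdm6b-KO ones (log2 change 0.03 with SE 0.19, adjusted p = 0.964), both with overlapping groups. The Mecom region, at chr3:30083356-30083849, lay within the gene and only 151 bp from a Control peak, with ranks of 63.3%, 64.4% and 55.0% and authors’ folds of 5.90, 6.10 and 7.51 in the lists of libraries titled 6bKO 1, 2 and 3. The region by Lmo2, at chr2:103990542-103990813, had ranks of 32.3%, 52.6% and 53.1% and authors’ folds of 8.14, 7.17 and 8.04 in the lists of libraries titled 6bKO 1, 2 and 3. Lmo2, a bridging factor in HSC transcription complexes, measured 555, 338 and 345 CPM in the Control libraries against 370.0, 453 and 380.2 in the Kdm6b-KO ones (log2 change -0.04 with SE 0.23, adjusted p = 0.956), with overlapping groups.

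Signalling genes came next. Of 27 cytokine and growth factor genes 3 had a region within 10 kb (Jak2, Stat5a and Stat5b) and 8 within 50 kb, adding Csf2rb, Ifngr1, Notch1, Socs3 and Stat3. None of the 24 tested was called by edgeR. Of the 24, 10 had an unadjusted p under 0.05 and DESeq2 called 4, both shares above the 14.8% and 3.09% over all genes. Csf2rb, the shared receptor chain for interleukin 3 and related cytokines, measured 41.3, 60.0 and 45.4 CPM in the Control libraries against 87.1, 80.9 and 81.0 in the Kdm6b-KO ones (log2 change 0.76 with SE 0.20, adjusted p = 0.114). Socs3, an inhibitor of cytokine signalling, measured 1.08, 1.27 and 2.70 CPM in the Control libraries against 3.58, 6.43 and 8.01 in the Kdm6b-KO ones (log2 change 1.78 with SE 0.48, adjusted p = 0.121). Both were higher in every Kdm6b-KO library without passing the threshold in edgeR. DESeq2 gave Csf2rb an adjusted p of 0.0300 and Socs3 one of 0.0366. The Stat5b region was among the weakest of all, with ranks of 58.9%, 98.2% and 96.2% in the lists of libraries titled 6bKO 1, 2 and 3, and lay 142 bp from a Control peak. It did not meet the rule with only peaks of −log10 q of at least 5 or with lists of equal length. A list of 19 chromatin regulators held enzymes and Polycomb partners acting on histone H3 lysines 27 and 4, and besides them Asxl1, Kdm2b and the DNA methylation enzymes Dnmt3a and Tet2. Of the 19, Asxl1, Ezh1 and Kdm2b had a region within 10 kb. The edgeR test called none of the 19, with 3 at an unadjusted p under 0.05 (14.8% over all genes) and 2 called by DESeq2 (3.09%). Ezh1, a Polycomb methyltransferase, measured 70.2, 118 and 116 CPM in the Control libraries against 88.6, 75.4 and 98.9 in the Kdm6b-KO ones, Kdm2b, a Polycomb recruiter, 26.0, 51.8 and 36.0 CPM in the Control libraries against 34.1, 37.6 and 29.1 in the Kdm6b-KO ones and Asxl1, a partner of a histone deubiquitinase, 39.6, 24.0 and 26.8 CPM in the Control libraries against 35.0, 36.9 and 38.5 in the Kdm6b-KO ones. Groups overlapped in each, and their adjusted p were 0.697, 0.785 and 0.592. Of 18 adhesion and homing genes Cdh5, Robo4 and Vwf had one within 10 kb. Vwf, a clotting protein carried by platelets and by some HSCs, had 1 region within its span and another outside it, and measured 65.6, 79.8 and 70.0 CPM in the Control libraries against 88.7, 56.4 and 189 in the Kdm6b-KO ones (log2 change 0.64 with SE 0.39, adjusted p = 0.493), with overlapping groups.

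Of 12 HSC surface genes 0 had a region within 10 kb and 3 (Flt3, Slamf1 and Tek) within 50 kb. Of 20 interferon-stimulated genes Ifi44 and Ifi44l had 1 shared region within 10 kb and Bst2 had 2 within 50 kb. The edgeR test called 2 of the 20 against 0.461% over all genes, and these were Ifi44l and Gbp2b, a guanylate-binding GTPase with no region within 50 kb. Both were higher in Kdm6b-KO. In the same test 7 of the 20 had an unadjusted p under 0.05 (14.8% over all genes), and DESeq2 called 3 (3.09%). The list as a whole did not rise: 12 genes had a lower and 8 a higher mean in Kdm6b-KO, with a median log2 fold change of -0.09. Of 32 immediate-early genes Jund alone had one within 10 kb and Egr3, Fos, Klf2 and Maff within 50 kb. The edgeR test called 3 of the 26 tested, 14 had an unadjusted p under 0.05 (14.8% over all genes) and DESeq2 called 7 (3.09%). The 3 were Fos, its relative Fosb and the phosphatase gene Dusp1, and all of them were higher in Kdm6b-KO. Neither Fosb nor Dusp1 had a region within 50 kb. Of the lists for other cells, neutrophil and monocyte genes had 1 of 17 within 10 kb (Cebpa), erythroid 0 of 13, megakaryocyte and platelet 1 of 12 (Vwf), mast cell, basophil and eosinophil 0 of 8, B cell 1 of 9 (Ebf1), and T and NK cell 1 of 16 (Bcl11b). Of 23 cell cycle genes, Ccnd3 and Cdk6 had one. Cdk6, a kinase that drives entry into the cell cycle, measured 1541, 2384 and 1215 CPM in the Control libraries against 872, 943 and 761 in the Kdm6b-KO ones (log2 change -0.997 with SE 0.26, adjusted p = 0.117), lower in every Kdm6b-KO library but not past the threshold in edgeR. DESeq2 gave Cdk6 an adjusted p of 0.00609. Of the 22 cell cycle genes tested, edgeR called none and 9 had an unadjusted p under 0.05 (14.8% over all genes). DESeq2 called 4 of them (3.09% over all genes). The labelled cell type was also checked with these lists. A region open in all 6 ATAC lists lay within 1 kb of 22 of the 24 HSC factors and 6 of the 12 HSC surface genes, against 5 of 13 erythroid, 5 of 17 neutrophil and monocyte, 8 of 12 megakaryocyte and platelet, 1 of 8 mast cell, basophil and eosinophil, 2 of 9 B cell and 2 of 16 T and NK cell genes. By this measure the surface genes did not stand above the megakaryocyte and platelet genes. The immediate-early list had 30 of 32 and the cell cycle list 21 of 23, though neither marks a cell type. The share of all protein-coding genes with such a region is not given here. These counts alone therefore do not settle the cell type.

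**Figure D4:**
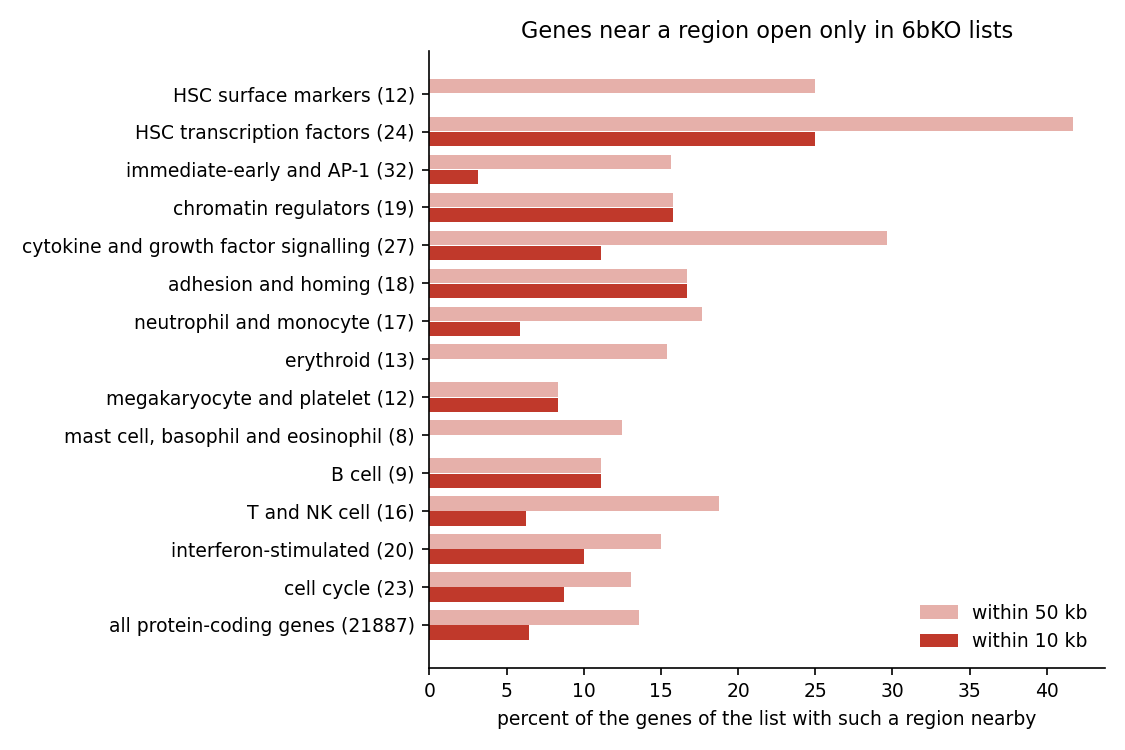
Share of the genes of each list (horizontal axis, percent) with a region open only in 6bKO lists within 10 kb (dark bars) or 50 kb (light bars) of the gene span; the number of genes stands beside each list. HSC transcription factors had 25% and 41.7%, against 6.48% and 13.6% of all protein-coding genes. These shares are not corrected for gene length.

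RNA was then compared between 3 Kdm6b-KO and 3 Control libraries, with 6793873 to 19336121 gene counts each, for the genes near the regions. Kdm6b itself measured 92.0, 282 and 221 CPM in the Control libraries against 142, 202 and 191 in the Kdm6b-KO ones (log2 change -0.15 with SE 0.35, adjusted p = 0.882). The groups overlapped, and since counts are per gene they do not show the floxed part apart. Its relative Kdm6a measured 86.8, 82.2 and 82.5 CPM in the Control libraries against 69.5, 80.4 and 65.1 in the Kdm6b-KO ones (log2 change -0.23 with SE 0.18, adjusted p = 0.590), lower in every Kdm6b-KO library but not past the threshold. Over all 15185 tested genes 70 were called (0.461%), and 37 of them rose (0.244%) while 33 fell (0.217%). With a known position they were 59 of 13619 (0.433%). Within 50 kb of a region open only in 6bKO lists lay 5480 annotated genes, of which 2176 were tested and 20 called (0.919%), 12 higher and 8 lower. Without chromosome 11, which carried Kdm6b and 8 of the 20, they were 12 of 1998 (0.601%) against 32 of 12498 (0.256%). Leaving chromosome 11 out thus took all called genes with a known position from 59 to 32. Of those near a region, Xaf1 starts at 72301461 and Camkk1 at 73016043 on that chromosome, and Kdm6b at 69398508. Whether their place near the targeted gene plays a part was not tested. Near regions open only in Control lists 6 of 682 were called (0.880%), all 6 of them higher in Kdm6b-KO, and near regions open in all 6 lists 52 of 12880 (0.404%). Genes near the 6bKO-only regions were longer, with a median span of 29.0 kb against 21.3 kb for all tested, and their median log2 fold change was 0.08 against 0.02, with 57.0% against 51.8% positive. That median stayed above the one for all tested genes in each of 10 alternative fits, by 0.05 to 0.08. Those fits reuse the same libraries and regions, so they are no independent check, and gene length was not matched. With library totals in place of TMM factors the median was 0.22 near the regions and 0.17 over all tested genes. Near Control-only regions the median was 0.01.

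The strand setting of the counting is not given in the sources used here, and 10 of the 20 called genes overlap another gene, so their counts may be mixed. Those 20 genes had 22 of the regions within 50 kb. Of the 22 regions, 12 met the rule under all 10 alternatives, while 10 were lost with lists of equal length, 7 of these also with only peaks of −log10 q of at least 5, and 1 also without 6bKO ATAC library 3. Most of the 10 alternatives relax the rule and could hardly remove a region, so this check rests on the stricter filters. The count of 20 fell to 3 without 6bKO RNA library 3, to 6 without 6bKO 2 and to 10 without Control 2, and was 96 without Control 1 and 35 without Control 3. Summed marker levels moved between the same libraries. Erythroid genes summed to 8327 to 11229 CPM in Control and 4529 to 5684 in Kdm6b-KO, but a single gene, the carbonic anhydrase Car2, carried most of this, with 7937 to 10761 and 4453 to 5577. Without Car2 the sums were 292 to 468 and 75.3 to 300.3 CPM and overlapped, and of the 13 genes 11 had a lower and 2, Epor and Hbb-bt, a higher mean in Kdm6b-KO. Cell cycle genes summed to 4911 to 5985 CPM in Control and 3866 to 4001 in Kdm6b-KO. Without Cdk6 the sums were 3601 to 3712 and 2922 to 3163, and 15 of the 23 genes had a lower and 7 a higher mean. Also apart were the sums of HSC transcription factors (6495 to 7369 against 5233 to 5960) and chromatin regulators (2870 to 4248 against 2127 to 2447). Without Fli1 the HSC factor sums were 5067 to 5295 and 4287 to 4826. Of the 24 factors 13 had a lower and 11 a higher mean, with a median log2 fold change of -0.02. Without Kmt2d the chromatin regulator sums were 1898 to 2169 and 1525 to 1864, and 16 of the 19 had a lower and 3 a higher mean. Immediate-early genes went the other way (842 to 1101 against 1148 to 1719). Sums of all remaining lists overlapped between groups. Neutrophil and monocyte genes summed to 4088, 1463 and 2448 CPM in Control 1, 2 and 3 and to 4784, 489 and 580 in Kdm6b-KO 1, 2 and 3. No gene of the erythroid list (13) or the neutrophil and monocyte list (17) was at 0 in all 6 libraries, and edgeR called none of either, with 3 erythroid genes and 0 of the others at an unadjusted p under 0.05 (14.8% over all genes) and 1 and 0 called by DESeq2 (3.09%). Their part in the results was not tested. In pooled RNA, fewer cells of a type and less RNA per cell cannot be told apart.

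**Figure D5:**
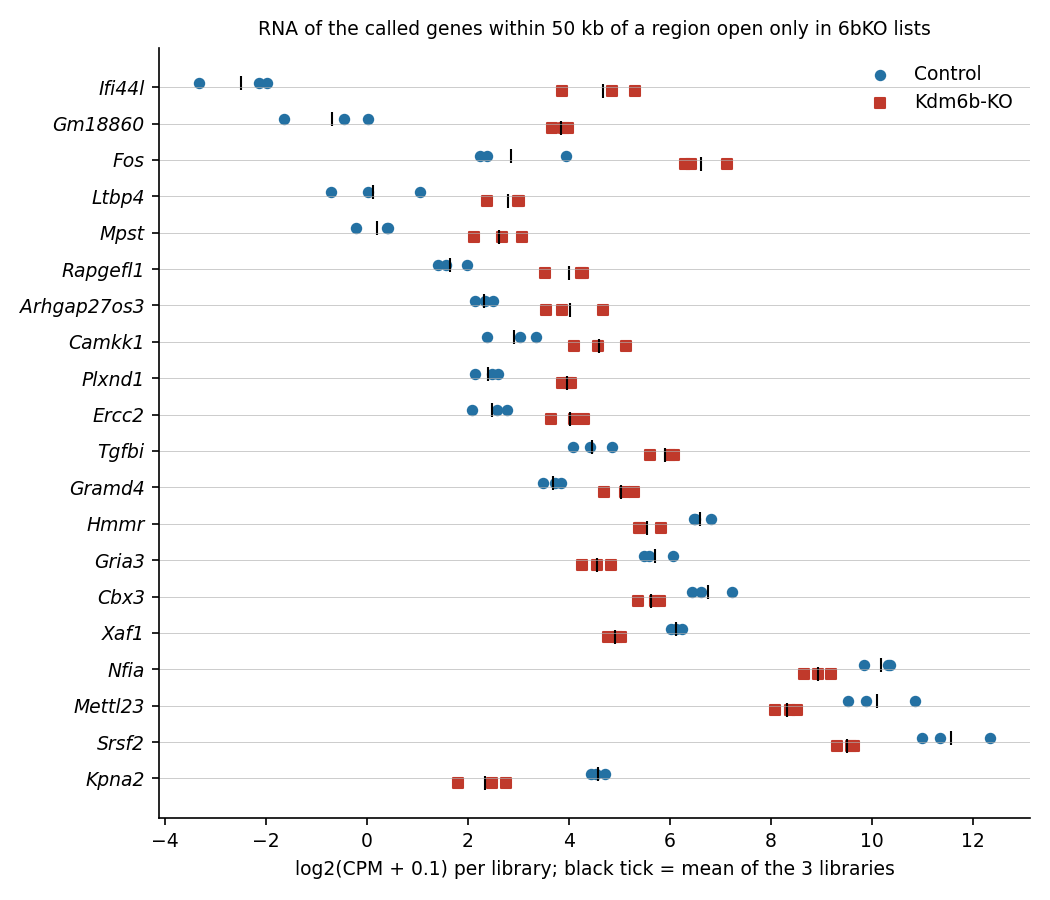
RNA level, log2(CPM + 0.1) (horizontal axis), of the 20 called genes within 50 kb of a region open only in 6bKO lists, with 1 point per library and a black tick at the mean of each group of 3. The red Kdm6b-KO squares are higher than the blue Control circles in 12 genes and lower in 8, all of them chosen by passing the test.

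The region with the largest RNA difference beside it was the one at the start of Ifi44. It covered chr3:151749808-151750107 and had ranks of 27.1%, 69.4% and 59.4% and authors’ folds of 9.18, 5.74 and 7.20 in the lists of libraries titled 6bKO 1, 2 and 3, and the nearest Control peak was 7158 bp away. Ifi44, an interferon-induced gene, was not called, with 94.3, 117 and 130.5 CPM in the Control libraries against 122, 121 and 87.3 in the Kdm6b-KO ones (log2 change -0.05 with SE 0.20, adjusted p = 0.935) and overlapping groups. Its neighbour Ifi44l, also interferon-induced, lay 8630 bp from the region and measured 0.154, 0.127 and 0 CPM in the Control libraries against 39.5, 28.8 and 14.4 in the Kdm6b-KO ones (adjusted p = 6.93e-05). Control held 2 Ifi44l counts in all and Kdm6b-KO 1008, a ratio of 346 after library size (exact 95% interval 95.7 to 2864, counting error only). The second region of this kind, at chr11:72314001-72314613, covered the start of Fbxo39, an F-box gene that was under 1 CPM in all 6 libraries, with ranks of 54.4%, 95.7% and 63.0% and authors’ folds of 6.22, 4.01 and 6.77 in the lists of libraries titled 6bKO 1, 2 and 3. It lay 268 bp from Xaf1, an interferon-induced gene of cell death. Xaf1 measured 75.4, 64.8 and 69.0 CPM in the Control libraries against 30.7, 32.8 and 27.2 in the Kdm6b-KO ones (log2 change -1.21 with SE 0.19, adjusted p = 0.00840), so its RNA was lower beside a region found only in the 6bKO lists. The Xaf1 call ended without 6bKO 2 (adjusted p = 0.07003) or 6bKO 3 (adjusted p = 0.104), and that of Ifi44l held under all 10 alternatives. The region by Xaf1 did not meet the rule with peaks of −log10 q of at least 5 or with lists of equal length.

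A region lay inside 5 called genes, 3 of them higher in Kdm6b-KO. Camkk1, a kinase that activates other calcium-dependent kinases, measured 5.07, 8.13 and 10.1 CPM in the Control libraries against 17.1, 23.8 and 35.0 in the Kdm6b-KO ones (log2 change 1.69 with SE 0.33, adjusted p = 0.0353). Rapgefl1, a relative of exchange factors for Rap GTPases, measured 3.84, 2.54 and 2.85 CPM in the Control libraries against 11.4, 18.7 and 19.2 in the Kdm6b-KO ones (log2 change 2.43 with SE 0.34, adjusted p = 0.00323). Ltbp4, which binds latent TGF-beta outside the cell, held 2 of the regions, at chr7:27325667-27326434 and chr7:27332413-27332856, and measured 0.921, 0.508 and 1.97 CPM in the Control libraries against 5.07, 7.95 and 7.91 in the Kdm6b-KO ones (log2 change 2.53 with SE 0.50, adjusted p = 0.0363). The first of the Ltbp4 regions had ranks of 24.6%, 15.0% and 42.7% in the lists of libraries titled 6bKO 1, 2 and 3 and the second ranks of 32.8%, 89.2% and 57.3% in the lists of libraries titled 6bKO 1, 2 and 3. The 2 others were lower. Hmmr, a hyaluronan receptor that also acts on the mitotic spindle, measured 113, 88.4 and 90.4 CPM in the Control libraries against 56.3, 42.6 and 41.6 in the Kdm6b-KO ones (log2 change -1.05 with SE 0.20, adjusted p = 0.0323), and its region was near the end of every list, with ranks of 97.3%, 93.0% and 83.1% in the lists of libraries titled 6bKO 1, 2 and 3. Gria3, a glutamate receptor subunit, measured 47.6, 66.6 and 44.6 CPM in the Control libraries against 19.1, 28.3 and 23.3 in the Kdm6b-KO ones (log2 change -1.17 with SE 0.24, adjusted p = 0.0439). All 5 calls ended without 6bKO 3 (adjusted p = 0.0516 to 0.304). Without 6bKO 2 (0.135 to 0.191) or Control 2 (0.0514 to 0.237) all but that of Rapgefl1 ended, as did that of Gria3 without 6bKO 1 (0.121) and those of Gria3 and Hmmr with library totals (0.0647 and 0.0585). The regions of Rapgefl1 and Hmmr and the second of Ltbp4 did not meet the rule with peaks of −log10 q of at least 5 or with lists of equal length.

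Outside the gene span, 8 more genes were higher. Fos, an AP-1 subunit induced within minutes of stimulation, had a region 19534 bp away, at chr12:85496808-85497033, and measured 15.2, 5.08 and 4.60 CPM in the Control libraries against 78.3, 139 and 85.5 in the Kdm6b-KO ones (log2 change 3.65 with SE 0.50, adjusted p = 0.0323). The Fos region stood 385 bp from a Control peak, with ranks of 73.9%, 62.8% and 57.6% in the lists of libraries titled 6bKO 1, 2 and 3. Tgfbi, a matrix protein induced by TGF-beta, was 2438 bp from its region and measured 16.7, 21.2 and 28.9 CPM in the Control libraries against 64.0, 48.8 and 67.5 in the Kdm6b-KO ones (log2 change 1.42 with SE 0.24, adjusted p = 0.0136). Mpst, an enzyme of sulfur metabolism, had regions 20704 and 35121 bp away, at chr15:78385621-78386008 and chr15:78449136-78449528, and measured 1.23, 0.762 and 1.24 CPM in the Control libraries against 6.29, 4.25 and 8.31 in the Kdm6b-KO ones (log2 change 2.53 with SE 0.47, adjusted p = 0.0255). The second of these lay in Tmprss6, a liver protease under 1 CPM in all 6 libraries, with ranks of 31.3%, 28.7% and 37.6% in the lists of libraries titled 6bKO 1, 2 and 3. Plxnd1, a semaphorin receptor, was 11232 bp from chr6:116006571-116007115 and measured 4.30, 5.46 and 5.99 CPM in the Control libraries against 14.4, 16.3 and 15.6 in the Kdm6b-KO ones (log2 change 1.55 with SE 0.30, adjusted p = 0.0323). Gramd4, which acts in cell death at mitochondria, was 43785 bp away and measured 14.3, 13.2 and 11.2 CPM in the Control libraries against 25.9, 34.5 and 38.7 in the Kdm6b-KO ones (log2 change 1.36 with SE 0.25, adjusted p = 0.0265). Ercc2, a DNA helicase of repair and transcription, had regions 19923 and 47790 bp away and measured 4.15, 6.73 and 5.85 CPM in the Control libraries against 12.4, 17.1 and 19.5 in the Kdm6b-KO ones (log2 change 1.55 with SE 0.32, adjusted p = 0.0451). Arhgap27os3, an antisense transcript whose counts may be mixed with those of an overlapping gene, was 19205 bp from chr11:103325278-103325548 and measured 5.53, 4.32 and 4.97 CPM in the Control libraries against 11.6, 25.4 and 14.5 in the Kdm6b-KO ones (log2 change 1.79 with SE 0.34, adjusted p = 0.0323). Gm18860, a pseudogene that may share reads with its parent, was 42940 bp from chr8:71660828-71661065 and measured 0.921, 0.635 and 0.219 CPM in the Control libraries against 12.6, 14.9 and 15.6 in the Kdm6b-KO ones (log2 change 4.73 with SE 0.47, adjusted p = 0.000208). All of these 8 calls but that of Gm18860 ended without 6bKO 3 (adjusted p = 0.0982 to 0.301) or Control 2 (0.0549 to 0.112), 5 without 6bKO 2 (0.0547 to 0.241), 3 without Control 3 (0.0582 to 0.0668) and that of Plxnd1 without 6bKO 1 (0.0584). With the replicate number as a block, those of Gramd4, Plxnd1, Ercc2 and Arhgap27os3 ended (0.0533 to 0.0616). The regions of Fos and Gramd4 did not meet the rule with peaks of −log10 q of at least 5 or with lists of equal length, and 1 of the 2 by Ercc2 did not with lists of equal length.

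Outside the gene span, 5 more genes were lower. Nfia, a transcription factor of erythroid and neural differentiation, was 2292 bp from the region at chr4:97575538-97575774 and measured 1278, 1313 and 912 CPM in the Control libraries against 583, 485 and 402 in the Kdm6b-KO ones (log2 change -1.25 with SE 0.24, adjusted p = 0.0303). That region had ranks of 28.0%, 49.6% and 67.4% in the lists of libraries titled 6bKO 1, 2 and 3. Cbx3, a heterochromatin protein, was 9743 bp from a region that lay 23 bp from Hnrnpa2b1, an RNA-binding protein gene. Cbx3 measured 98.4, 150.1 and 86.1 CPM in the Control libraries against 52.1, 55.7 and 41.0 in the Kdm6b-KO ones (log2 change -1.17 with SE 0.23, adjusted p = 0.0353), while Hnrnpa2b1, closer to the region, measured 1589.7, 1309.8 and 1729 CPM in the Control libraries against 1729, 1692 and 1521 in the Kdm6b-KO ones (log2 change 0.09 with SE 0.22, adjusted p = 0.885) with overlapping groups. Kpna2, an importin that carries proteins into the nucleus, was 7852 bp from chr11:106980508-106980777 and measured 26.3, 23.1 and 21.7 CPM in the Control libraries against 5.51, 3.38 and 6.63 in the Kdm6b-KO ones (log2 change -2.17 with SE 0.30, adjusted p = 0.00281). The neighbours Mettl23, a methyltransferase, and Srsf2, a splicing factor, shared 1 region, at chr11:116808136-116808491, 35024 and 41406 bp away. Mettl23 measured 741, 1852 and 941 CPM in the Control libraries against 330.3, 272 and 368 in the Kdm6b-KO ones (log2 change -1.86 with SE 0.31, adjusted p = 0.0192) and Srsf2 2029.9, 5175 and 2602 CPM in the Control libraries against 770.4, 632 and 799.8 in the Kdm6b-KO ones (log2 change -2.15 with SE 0.33, adjusted p = 0.00749). That region lay in Mxra7, which was under 1 CPM in all 6 libraries. The Kpna2 call held under all 10 alternatives. The other 4 ended without 6bKO 2 (adjusted p = 0.1005 to 0.188) or 6bKO 3 (0.104 to 0.288), those of Nfia, Cbx3 and Mettl23 without 6bKO 1 (0.0512 to 0.0776) and that of Cbx3 without Control 2 (0.169). With lists of equal length the regions of Nfia, Cbx3 and the Mettl23 and Srsf2 pair did not meet the rule, nor did the last with peaks of −log10 q of at least 5 or that of Cbx3 without 6bKO ATAC library 3.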

How the data were processed

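For each RNA library the authors deposited whole-number counts by Ensembl gene ID, not normalized. The submitters' processing notes name Partek 6.6, HTSeq 0.8.0, STAR 2.0.4 and Subread featureCounts 1.4.5 for RNA and cutadapt 1.16, BWA 0.7.16a and MACS2 for ATAC, on mm10, with no roles given. Lines for unassigned reads were left out, and genes took 16.5% to 19.7% of the reads in each file. ATAC was deposited as 1 peak list per library, in which, per the file columns the authors deposited, each peak has a score, a fold enrichment, a −log10 p and a −log10 q. These are the authors' own values, used only to describe, rank or filter peaks within a list. The other 8 of the 20 samples were not analysed here.

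Peaks were merged with no gap allowed. Gene spans, gene types and promoter windows came from RefSeq tables of GRCm38.p6 (mm10). Joined on symbols, they covered 89.7% of tested genes. Distances run from region to gene span, and 0 means overlap. Differences in RNA come from edgeR 4.0.16 under R 4.3.3 (filterByExpr, TMM, robust quasi-likelihood fit on genotype alone, two-sided, Benjamini-Hochberg over 15185 genes, threshold 0.05). CPM use TMM-scaled totals, and each SE is the log2 fold change over the root of F. DESeq2 1.42.0 was an alternative. Both steps were tested on simulated data. Replicate libraries differed by far more than sampling noise, with a chi-square per degree of freedom of at least 14.8, so none was counted as a duplicate. Counting intervals cover counting error only.

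The regions and gene lists were chosen with earlier results of these data known. Named regions were the 6 strongest by the weakest of their 3 ranks, at most 8 by rank beside called genes, up to 2 per list within 10 kb and the 3 widest. Named genes were Kdm6b, Kdm6a, the nearest genes of named regions, called genes within 50 kb and the genes with most regions. Other regions, and other list members near a region, were named after their values were seen.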

Additional observations from a re-analysis of the deposited data

How the results depend on the processing

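The number of regions was 1760 with only peaks of −log10 q of at least 5, 1951 with peaks up to 100 bp apart merged, 1987 where a Control peak counted only if it covered at least 50% of the shorter, and 1486 with lists of equal length. Leaving out each ATAC library gave 2200 to 5199. Leaving a library out relaxes the rule, and each such set held 98.7% to 100% of the 1948. The share in a gene span stayed between 63.95% and 66.46% under these settings and was 54.9% for protein-coding genes only. For all RNA calls, 70 in the main fit, DESeq2 gave 438, the fit with no low-count filter 576, library totals 100 (70 higher and 30 lower) and fits without one RNA library 20 to 519. For calls within 50 kb of a region, 20 in the main fit, DESeq2 gave 88, no low-count filter 107, library totals 30 and fits without one RNA library 3 to 96. They were 11 within 10 kb, 23 within 100 kb, 12 without chromosome 11 (chosen after seeing the data) and 21 to 33 with the regions found without one ATAC library (also chosen after seeing the data). With the replicate number as a block 88 genes were called, 18 of them near a region. The deviations of same-numbered RNA libraries had correlations of 0.03, 0.16 and -0.13, and those of differently numbered ones ran from -0.20 to 0.13. So few correlations show no pairing by number and cannot exclude one. Named genes changed side of the threshold in 73 of 848 alternative fits, and no direction of a called gene reversed. Most of the 848 were fits of genes that the main fit did not call. Of the 73 changes, 57 were losses, all among the 20 called genes, with 10 alternative fits each. The other 16 were gains. The causes of these differences were not tested. ATAC depth is unknown, so a region absent from a list may be below its threshold.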
